A study of Mus musculus with 36 samples.

Results

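The cell proliferation genes examined here were 43 listed genes of DNA replication and mitosis, of 24683 genes in the deposited tables. Of the 43 genes, 14 act in DNA replication, 27 in mitosis, and 2 (E2f1 and Foxm1) encode transcription factors of the cell cycle. The genes were chosen by name, as a list, with no threshold on their values. RNA-seq was performed on 36 libraries from the main olfactory epithelium (MOE), the vomeronasal organ (VNO) and the olfactory bulb (OB) of C57BL/6 mice at 6 months of age. Each tissue had 4 groups of 3 libraries: sex-separated females (SF) and sex-separated males (SM), kept from weaning at 3 weeks with 4 mice of one sex per cage, and the sex-combined groups of females (CF) and of males (CM), kept with 2 females and 2 males per cage. The labels name no mutant allele, transgene or drug in any group, and litters of the sex-combined cages were taken away within a day. Each library was a pool of mice (2 per pool in the labels, another number in the methods), so that the spread between replicates is a spread between pools, and whole dissected tissue was used with no sorting of cells.

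Cells that divide copy their DNA in S phase and separate the copies in M phase. Genes for replication are switched on before S phase, largely through E2F factors. Genes for mitosis are held off in resting cells by the DREAM complex and switched on in G2 and M phase through MYB-MuvB with FOXM1. In the adult MOE and VNO, basal progenitor cells keep dividing and replace sensory neurons, while most new neurons of the OB are born outside it, along the lateral ventricles, and arrive as migrating neuroblasts that have largely stopped dividing.

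Levels are given as FPKM, fragments relative to transcript length and to the mapped fragments of the library, which Cufflinks scaled for each library on its own. In bulk tissue, a lower level can come from fewer dividing cells, from less RNA per cell or from a larger share of other transcripts. These cannot be told apart. For example, 4 nasal gland genes summed to 20875 to 34359 FPKM in VNO, 2537 to 10105 in MOE and at most 65.6 in OB. Their part in the tissue differences was not tested. Between 3016520 and 6779890 fragments per library were estimated behind the deposited FPKM values, of which the 43 genes held 586 to 1145 in OB, 1164 to 2364 in VNO and 1465 to 3255 in MOE. These estimates lie below the aligned pairs that the paper gives for each library, and they are not the sequencing depth. By them, the median library had fewer than 10 fragments for 24 of the 43 genes in OB, 9 in VNO and 8 in MOE. The tissue labels were checked by defining markers: Omp, of mature olfactory neurons, had a median of 1018 FPKM in MOE against 102 in VNO and 35.1 in OB, Trpc2, the vomeronasal channel, had 0.994, 43.7 and 0, and Th, of dopaminergic bulb neurons, had 0.0764, 0.0152 and 45.1. One library, MOE CM replicate 3, stood apart. It had the fewest estimated fragments, though not the fewest aligned pairs in the paper. There it had the lowest shares of aligned reads and of concordant pairs, and the shortest mean insert, of the 36 libraries. Its median log2 distance to the tissue median was -0.55 over all genes and -0.48 over the proliferation genes, and 25 of 27 proliferation genes tested in MOE were lowest in this library. RNA integrity in the paper was lowest in VNO and highest in OB, with no overlap between tissues, and its part in the tissue differences was not tested.

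Mitosis genes showed a steep order of the tissues, with MOE highest, VNO in between and OB lowest, while the sum of the replication genes, of which Pcna made up a large part, differed less. The summed FPKM of the 27 mitosis genes was 23.1 ± 3.68 in MOE and 12.9 ± 1.47 in VNO, against 4.08 ± 0.573 in OB (SD, n = 12 libraries each). MOE ranged from 13.9 to 27.8, VNO from 10.6 to 14.9 and OB from 3.15 to 4.80, so that the OB libraries lay below all others and MOE overlapped VNO only through MOE CM replicate 3. Without that library, MOE ranged from 19.0 to 27.8, with a mean of 23.9 ± 2.37 (n = 11). The summed FPKM of the 14 replication genes was 24.9 ± 3.33 in MOE and 20.5 ± 1.67 in VNO, against 17.7 ± 1.28 in OB, with overlapping ranges of 15.6 to 29.4, 17.8 to 22.6 and 15.3 to 19.9. Without Pcna, the replication sums had means of 16.8 ± 2.19, 15 ± 1.30 and 9.89 ± 0.718 in that order, and the OB libraries (8.84 to 10.9) lay below all VNO libraries (12.8 to 16.7) and all MOE libraries but MOE CM replicate 3 (10.53). The ratio of the mitosis sum to the replication sum, in which the scaling of a library cancels, ran from 0.821 to 1.05 for MOE, from 0.516 to 0.695 for VNO and from 0.193 to 0.269 for OB. In this ratio the libraries of the 3 tissues did not overlap, and MOE CM replicate 3 (0.889) lay inside the range of the other MOE libraries. Without Bub1b, which was nearly as high in OB as elsewhere, the mitosis sums had means of 22.1 ± 3.52, 11.9 ± 1.5 and 3.19 ± 0.469 in MOE, VNO and OB.

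**Figure D1:**
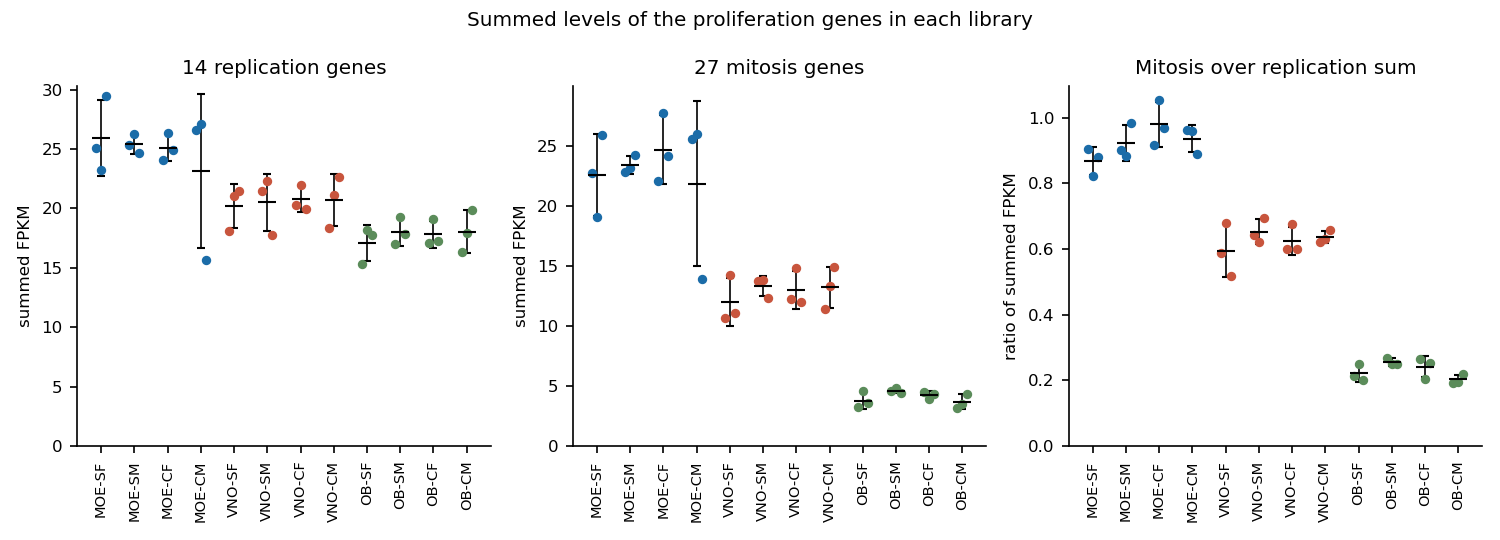
Summed FPKM of the 14 replication genes and the 27 mitosis genes, and the ratio of the mitosis to the replication sum, in each of the 36 libraries. Points are libraries, bars the mean and SD of the 3 libraries of a group. The mitosis sums lie between 13.9 and 27.8 in MOE and between 3.15 and 4.80 in OB, and the low MOE point in the CM group is MOE CM replicate 3.

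The promoters of the genes were searched for motifs, which the choice of the genes did not use, and the shares are given with no test. RefSeq promoters (GRCm38.p6, 250 bases before to 50 after the start) were found for 35 of the 43 genes and searched on both strands. The cell cycle homology region, the element bound by the DREAM and MYB-MuvB complexes, was searched as TTTGAA or TTCGAA. It occurred in 17 of 22 mitosis promoters (77.3%) and in 3 of 12 replication promoters (25%), against 21.7% of the promoters of all 27025 genes in the table. In a shorter window, from 200 bases before the start to the start, it occurred in 9 of 22 (40.9%), 2 of 12 (16.7%) and 15.4%. The CCAAT box, bound by NF-Y, was found in 81.8% of mitosis, 66.7% of replication and 41.1% of all promoters, and in 81.8%, 66.7% and 32.7% in the shorter window. The E2F site, searched as TTTGGCGC, TTTCCCGC, TTTCGCGC or TTTGCCGC, occurred in 1 of 22 mitosis promoters (4.55%; Cdk1), in 6 of 12 replication promoters (50%; Cdc6, Cdt1, Mcm3, Mcm5, Mcm6 and Mcm7) and in 2.6% of all promoters. These values were 4.55%, 33.3% and 1.83% in the shorter window, and they describe letters, not bound sites.

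Of the genes with a promoter entry, the 2 mitosis and 2 replication genes with the highest mean level in MOE are shown as examples, 5′ to 3′, with matches to the cell cycle homology region or the E2F site in capitals. Top2a encodes DNA topoisomerase II alpha, which untangles chromosomes for their separation (GRCm38.p6 chr11:99024140-99024439, minus strand, 4 cell cycle homology region matches).
Top2a: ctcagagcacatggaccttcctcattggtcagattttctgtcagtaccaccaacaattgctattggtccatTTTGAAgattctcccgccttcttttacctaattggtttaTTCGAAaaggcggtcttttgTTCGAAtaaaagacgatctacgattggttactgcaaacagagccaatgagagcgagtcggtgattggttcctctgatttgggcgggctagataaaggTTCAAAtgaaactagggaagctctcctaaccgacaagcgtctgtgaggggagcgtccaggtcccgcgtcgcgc
Prc1 encodes the protein that bundles microtubules of the central spindle before cells divide (chr7:80294201-80294500, plus strand, 1 such match).
Prc1: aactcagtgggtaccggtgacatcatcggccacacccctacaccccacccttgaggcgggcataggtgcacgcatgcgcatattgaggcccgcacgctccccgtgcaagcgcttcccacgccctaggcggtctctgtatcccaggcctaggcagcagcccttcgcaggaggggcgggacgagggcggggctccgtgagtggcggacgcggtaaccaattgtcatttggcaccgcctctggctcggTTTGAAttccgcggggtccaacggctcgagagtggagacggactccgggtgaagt
Pcna encodes the sliding clamp of DNA polymerases (chr2:132253131-132253430, minus strand, with neither motif).
Pcna: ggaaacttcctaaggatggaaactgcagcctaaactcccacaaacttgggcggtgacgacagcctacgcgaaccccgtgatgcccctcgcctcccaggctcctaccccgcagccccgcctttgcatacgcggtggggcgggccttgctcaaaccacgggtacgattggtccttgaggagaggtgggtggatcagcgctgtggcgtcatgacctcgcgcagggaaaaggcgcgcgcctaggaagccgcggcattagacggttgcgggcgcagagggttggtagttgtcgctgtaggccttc
Mcm6 encodes a subunit of the MCM2-7 helicase, which opens DNA ahead of the replication fork (chr1:128359656-128359955, minus strand, 3 E2F matches, of which a pair overlap, so that the capitals form 2 runs).
Mcm6: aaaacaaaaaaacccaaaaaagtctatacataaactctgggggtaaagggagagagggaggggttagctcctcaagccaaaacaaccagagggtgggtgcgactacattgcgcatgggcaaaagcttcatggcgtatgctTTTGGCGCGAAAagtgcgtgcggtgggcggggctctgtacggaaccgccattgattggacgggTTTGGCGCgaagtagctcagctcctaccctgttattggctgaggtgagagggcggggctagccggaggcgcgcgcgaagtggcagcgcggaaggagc

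Among the mitosis genes, the general marker of cycling cells Mki67 (mm9 chromosome 7, 142881471 to 142908062) had 0.915, 1.25 and 1.55 FPKM in MOE (lowest, median and highest library), 0.620, 0.754 and 0.919 in VNO, against 0.0424, 0.0660 and 0.123 in OB. Every MOE and VNO library was above every OB library, while MOE and VNO overlapped slightly. The mean levels of 1.23 ± 0.190, 0.763 ± 0.10 and 0.0694 ± 0.0222 FPKM (SD, n = 12) gave an MOE to OB ratio of 17.8. In the limma fit over all 36 libraries, with FPKM + 0.5 on a log2 scale, so that changes of low genes are understated, Mki67 was higher in MOE than in OB by 1.60 ± 0.0532 (SE, adjusted p = 2.66e-22) and higher in VNO than in OB by 1.15 ± 0.0532 (adjusted p = 1.48e-18). The difference between MOE and VNO was 0.45 ± 0.0532 (adjusted p = 6.52e-09).

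Top2a (mm9 chromosome 11, 98854261 to 98885503) had the largest difference of the tested proliferation genes in each of the 3 tissue comparisons on the log2(FPKM + 0.5) scale. By the ratio of means, the tested gene Ccna2 exceeded Top2a between MOE and OB (24.9 against 21.5), and Ccna2 and Mki67 exceeded it between VNO and OB (14.5 and 11.0 against 8.30). Of the genes below the filter, Tk1 (14.5) and Ndc80 (8.53) also exceeded it between VNO and OB. Cenpe (3.52) and Ccnb1 (2.66), also below the filter, exceeded it between MOE and VNO (2.58 for Top2a). The Top2a libraries had 1.95, 3.37 and 4.05 FPKM in MOE, 1.08, 1.28 and 1.63 in VNO, against 0.104, 0.147 and 0.214 in OB, with no overlap between any tissues. The log2 differences were 2.54 ± 0.0766 for MOE against OB (adjusted p = 2.12e-23), 1.45 ± 0.0766 for VNO against OB (adjusted p = 4.00e-17) and 1.09 ± 0.0766 for MOE against VNO (adjusted p = 1.01e-13). Cdk1, the kinase that drives entry into mitosis, had 0.601, 1.15 and 1.53 FPKM in MOE, 0.50, 0.662 and 1.10 in VNO, against 0.0189, 0.0980 and 0.169 in OB. Both nasal tissues were above all OB libraries, and the log2 difference of MOE to OB was 1.43 ± 0.0696 (adjusted p = 5.22e-18). Ccna2, a cyclin of S and G2 phase, had 0.674, 1.36 and 1.91 FPKM in MOE and 0.559, 0.745 and 1.07 in VNO. In OB it was listed at 0 in 11 of 12 libraries and at 0.657 in the other, and since its locus overlaps that of Exosc9, its ratio of 24.9 between MOE and OB rests on the OB estimate.

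**Figure D2:**
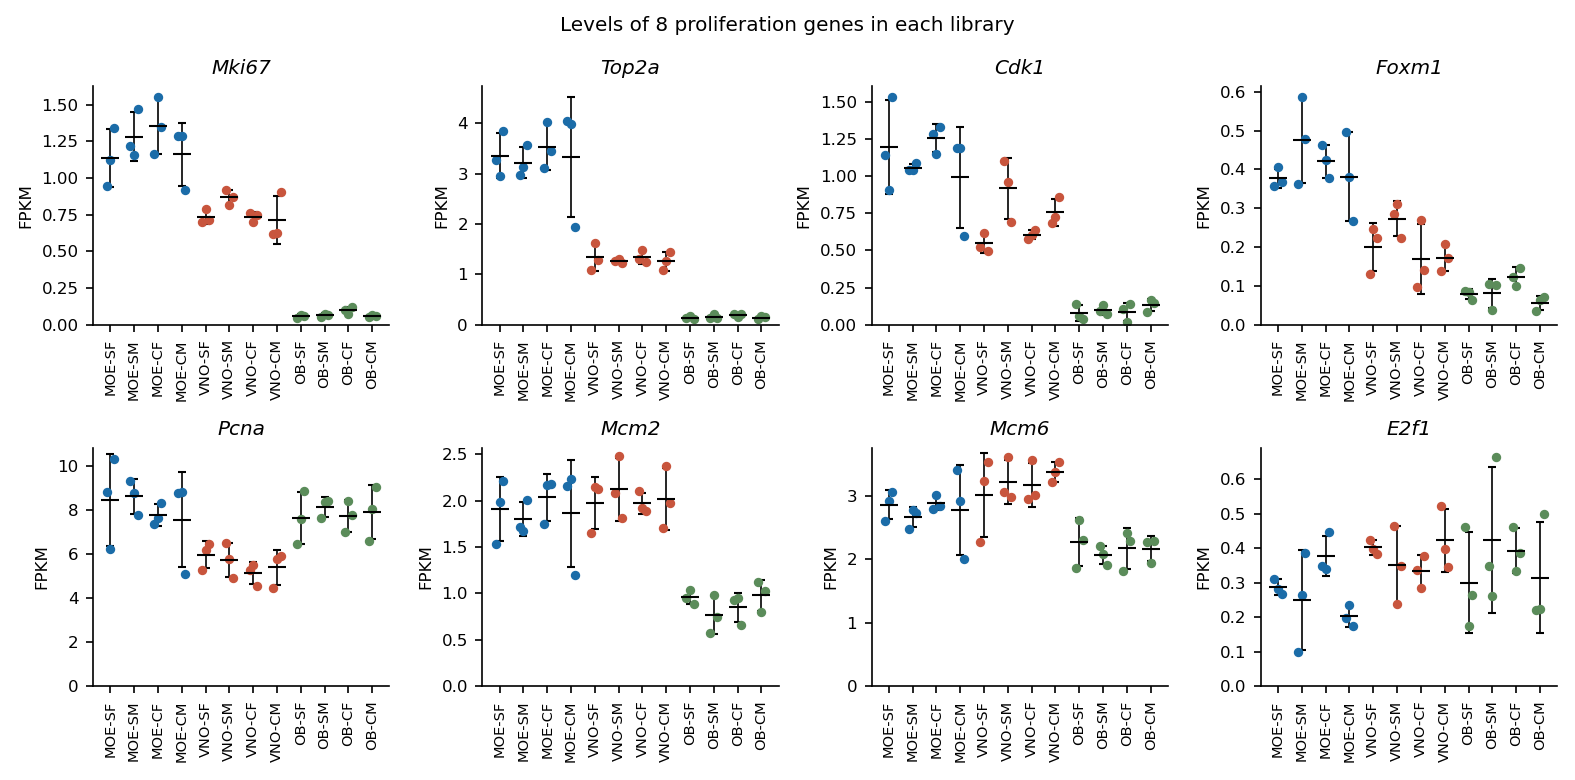
FPKM of 4 genes of the G2 and M phase (upper row) and 4 genes of replication or its control (lower row) in each of the 36 libraries, with points for libraries and bars for the mean and SD of each group of 3. Mki67, Top2a and Cdk1 lie at or below 0.214 FPKM in every OB library, whereas Pcna in OB (6.48 to 9.03) lies in the range of MOE (5.10 to 10.3).

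The other mitosis genes followed with few exceptions. Of the 26 mitosis genes above 0 in every tissue, 24 had their mean levels in the order MOE, VNO, OB, and the ratio of means between MOE and OB had a median of 6.23 and ran from 1.10 to 24.9. Prc1 had 1.28, 1.98 and 2.36 FPKM in MOE, 0.738, 0.870 and 1.14 in VNO, against 0.134, 0.360 and 0.457 in OB, and was higher in MOE than in VNO by 0.78 ± 0.0763 on the log2 scale (adjusted p = 1.57e-10). None of its libraries overlapped between tissues. Ccnb2, a cyclin B that partners CDK1, had 0.475, 1.08 and 1.29 FPKM in MOE, 0.289, 0.444 and 0.686 in VNO, against 0.0801, 0.268 and 0.380 in OB. All MOE libraries were above all OB libraries, and the log2 difference of MOE to VNO was 0.63 ± 0.0963 (adjusted p = 7.86e-07). Cenpe, a kinetochore motor, had the largest ratio of means between MOE and VNO (3.52), with 0.379, 0.696 and 0.845 FPKM in MOE and 0.119, 0.202 and 0.279 in VNO, and its VNO level was only 1.61 times that in OB. The checkpoint kinase Bub1 (MOE to VNO ratio 2.39) and the spindle motor Kif11 (2.09) were likewise separated in all libraries of these tissues.

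Among the kinetochore genes, Ndc80 and Nuf2, which encode partners in one complex, had MOE to OB ratios of 17.6 and 3.80, and Cenpf, a kinetochore-associated protein, had 11.0. Of the mitotic kinases, Aurkb of the chromosomal passenger complex had 8.21 and its partner Birc5 (survivin) 9.67, while Aurka, which acts at the spindle poles, had 2.92 and Ttk, a checkpoint kinase, 5.21. Ccnb1, the other cyclin B, had 19.3 and Dlgap5, a spindle protein, had 12.9. The regulators of the anaphase promoting complex Cdc20 and Ube2c had 6.01 and 8.52, Kif23, a central spindle motor, had 5.99, and Cenpa, the centromeric histone, had 6.15. Low ratios of 2.59 and 3.09 were found for the microtubule proteins Nusap1 and Tpx2, which were also close between VNO and OB (1.47 and 1.49). The OB means behind many of these ratios were small, such as 0.0256 FPKM for Ccnb1 and 0.0196 for Bub1, from 13.0 and 11.8 estimated fragments summed over the 12 libraries.

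Bub1b and Plk1 were the only mitosis genes whose mean was higher in VNO than in MOE. Bub1b, a kinetochore checkpoint protein (mm9 chromosome 2, 118423947 to 118467328), had 0.494, 0.966 and 1.44 FPKM in MOE, 0.769, 0.999 and 1.29 in VNO, against 0.588, 0.795 and 1.35 in OB. Its libraries overlapped between all tissues, and the log2 difference of MOE to OB was 0.10 ± 0.0693 (adjusted p = 0.202), which became significant, at 0.14, without MOE CM replicate 3. The libraries of a tissue together held 799 (MOE), 877 (VNO) and 814 (OB) estimated fragments of Bub1b, so that its level in OB does not rest on a few fragments. Plk1, the polo-like kinase, was low in all tissues, with means of 0.226 ± 0.0939, 0.270 ± 0.121 and 0.0657 ± 0.0534 FPKM, and overlapped between all tissues.

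Among the replication genes, Pcna (mm9 chromosome 2, 132075022 to 132078916) was the highest of the 43 genes in each tissue, with 5.10, 8.55 and 10.3 FPKM in MOE, 4.47, 5.65 and 6.49 in VNO, against 6.48, 7.91 and 9.03 in OB. The MOE to OB ratio was 1.03, with a log2 difference of 0.03 ± 0.0850 (95% interval -0.14 to 0.20, adjusted p = 0.752). Pcna was lower in VNO than in OB by -0.47 ± 0.0850 (adjusted p = 1.05e-05) and higher in MOE than in VNO by 0.50 ± 0.0850 (adjusted p = 4.84e-06). Only Pcna and Mcm7 had this order of means, with MOE highest and VNO lowest.

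The subunits of the MCM2-7 helicase differed among themselves although they form 1 complex. Mcm2 had 1.20, 2.00 and 2.23 FPKM in MOE, 1.65, 2.03 and 2.48 in VNO, against 0.576, 0.941 and 1.12 in OB, and Mcm3 had 0.572, 0.968 and 1.46, then 1.02, 1.36 and 1.58, then 0.245, 0.408 and 0.532. For both, all nasal libraries were above all OB libraries, and Mcm3 was lower in MOE than in VNO by -0.34 ± 0.0665 (adjusted p = 3.47e-05). Mcm6 had 2.00, 2.82 and 3.40 FPKM in MOE, 2.27, 3.23 and 3.62 in VNO, against 1.81, 2.24 and 2.63 in OB. Its difference of MOE to VNO was -0.17 ± 0.0679 (adjusted p = 0.0263) and was not significant without MOE CM replicate 3, VNO SF replicate 3, VNO SM replicate 2 or VNO CF replicate 2. Mcm7 (mm9 chromosome 5, 138605811 to 138613111) had the opposite order in VNO and OB, with 1.65, 2.26 and 2.74 FPKM in MOE, 1.09, 1.36 and 1.70 in VNO, against 1.73, 2.11 and 2.63 in OB. All VNO libraries were below all OB libraries (log2 difference -0.46 ± 0.0562, adjusted p = 8.57e-09). Mcm4 and Mcm5 had MOE to OB ratios of 1.27 and 1.5 and were significantly higher in MOE than OB in the limma fit. Their libraries overlapped between all tissues.

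Rrm2, Tyms, Tk1 and Cdc45 had MOE to OB ratios from 3.24 (Tyms) to 9.72 (Tk1). The ribonucleotide reductase subunit Rrm2 had means of 0.873 ± 0.208, 0.586 ± 0.173 and 0.190 ± 0.0884 FPKM in MOE, VNO and OB, and thymidylate synthase (Tyms) had 0.610 ± 0.111, 0.509 ± 0.102 and 0.188 ± 0.0544. Thymidine kinase (Tk1) had 0.421 ± 0.103 in MOE and 0.629 ± 0.194 in VNO, and was listed at 0 in 7 of 12 OB libraries and at most at 0.160 in the others. Cdc45, which joins the MCM helicase at the fork, had 1.77 ± 0.437, 1.09 ± 0.117 and 0.498 ± 0.131 FPKM. These genes all separated the nasal tissues from OB in every library. The loading factor Cdt1 had 0.230 ± 0.0848, 0.473 ± 0.106 and 0.206 ± 0.0791 FPKM, with the lowest MOE to VNO ratio of the 43 genes (0.486) and an MOE to OB ratio of 1.11 with overlapping libraries, and its partner Cdc6 had 0.195 ± 0.0518, 0.131 ± 0.0370 and 0.0467 ± 0.0264.

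The transcription factors differed from each other. Foxm1 had 0.267, 0.393 and 0.585 FPKM in MOE, 0.0964, 0.216 and 0.309 in VNO, against 0.0352, 0.0858 and 0.147 in OB, in the same order as most mitosis genes and with no overlap between MOE and OB. E2f1 had 0.0991, 0.274 and 0.445 FPKM in MOE, 0.237, 0.380 and 0.523 in VNO, against 0.175, 0.341 and 0.663 in OB, with overlap between all tissues and its lowest mean in MOE (0.279 ± 0.0958). Their means were too low for the filter, and in a fit without a filter Foxm1 was higher in MOE than in OB by 0.64 ± 0.0452 (adjusted p = 2.38e-13), whereas the same difference of E2f1 was -0.13 ± 0.0736 (adjusted p = 0.114).

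Some genes were listed at 0 in single libraries or in whole tissues. Kif20a was listed at 0 in all 36 libraries and Gins2, of the GINS complex of the replication fork, in all VNO and OB libraries and in 6 of 12 MOE libraries, where the others reached 1.23 FPKM. Cdc20 was listed at 0 in 3 VNO libraries, while the remaining VNO libraries had 0.653 to 1.16 FPKM. In the mm9 annotation, these genes overlap other genes (Kif20a with Brd8 and Cdc23, Gins2 with Gse1, Cdc20 with Elovl1, Ccna2 with Exosc9, Tk1 with Afmid), and it is not stated whether strand was used in the quantification, so their values are uncertain. Nusap1 and Oip5, Foxm1 and Tex52, Tpx2 and a microRNA gene, and Mcm7 and 3 microRNA genes also overlap.

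**Figure D3:**
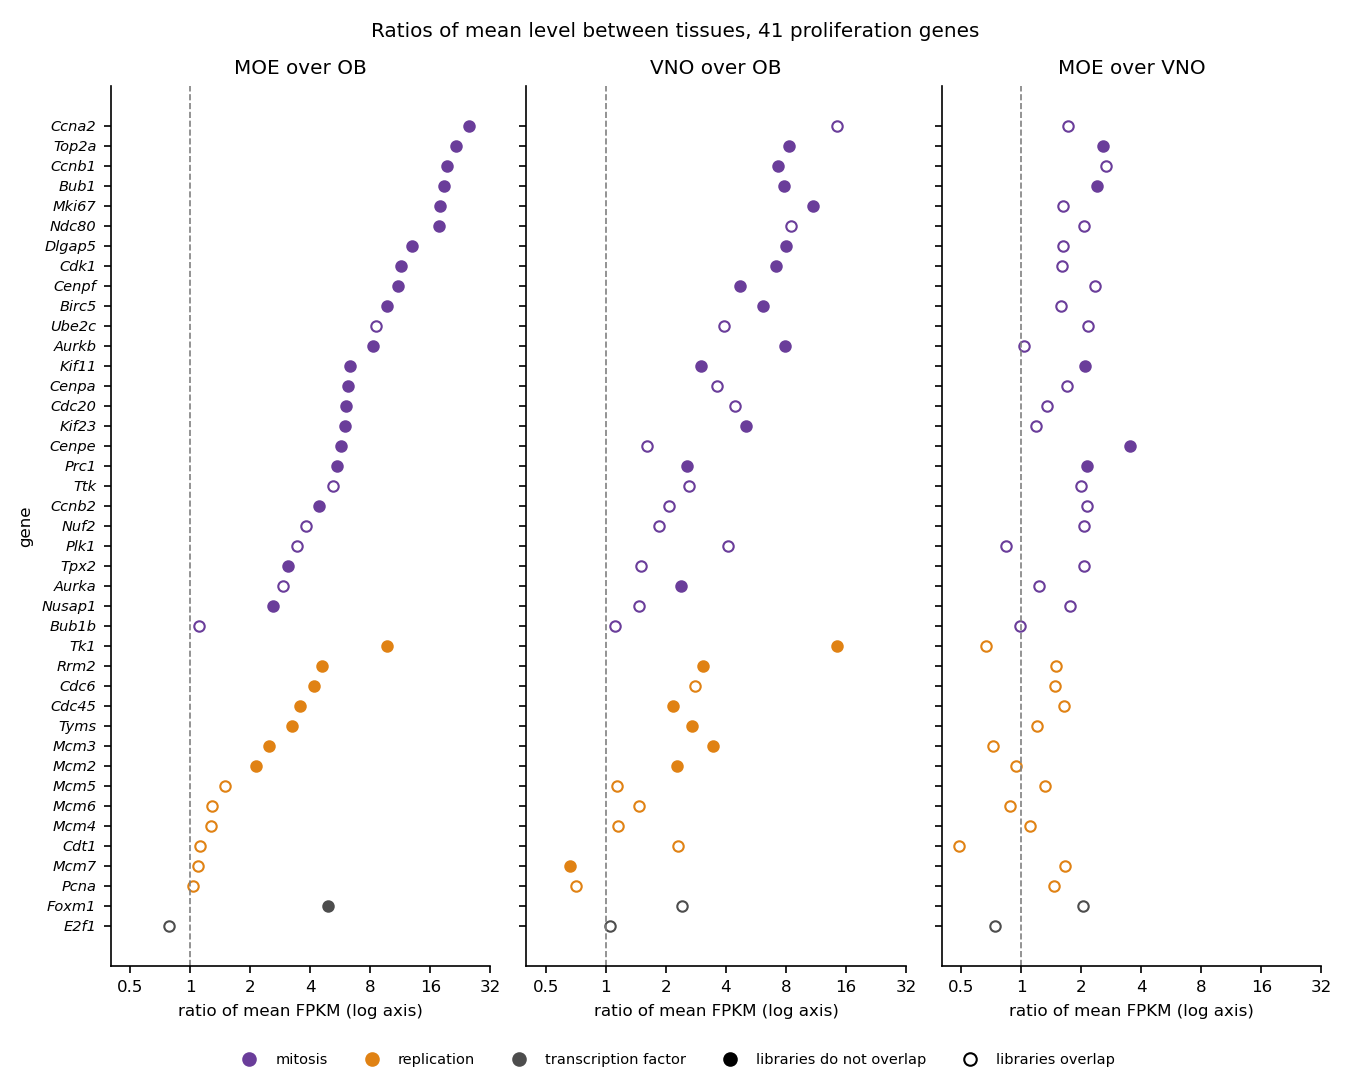
Ratios of mean FPKM between tissues (log axis) for the 41 proliferation genes above 0 in all tissues, by group of genes, with filled points where the 12 libraries of one tissue do not overlap those of the other. Between MOE and OB the mitosis genes run from 1.10 (Bub1b) to 24.9 (Ccna2), and the replication genes from 1.03 (Pcna) to 9.72 (Tk1).

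Across all 43 genes, every MOE library was above every OB library for 20 of 27 mitosis genes, 7 of 14 replication genes and Foxm1. Of all genes above 0 in any library, 20.6% were separated in this direction and 20.0% in the other. The same held between VNO and OB for 13 mitosis and 6 replication genes, with Mcm7 in the opposite direction (22.9% of all genes above and 24.7% below). Between MOE and VNO it held for 5 mitosis genes (Top2a, Bub1, Kif11, Cenpe and Prc1) and for no replication gene (13.0% above and 15.6% below). The replication genes had median ratios of 2.14 for MOE to OB, 2.27 for VNO to OB and 1.20 for MOE to VNO, and the mitosis genes 6.23, 4.28 and 1.88.

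In the limma fit, 23 of the 43 genes passed the filter on a mean of 0.5 FPKM over all libraries. This filter keeps low genes through the tissue in which they are high, so that the counts are descriptions. Between MOE and OB, 20 of 23 genes were higher in MOE and none lower (13 of 14 mitosis and 7 of 9 replication genes), while 45.7% of all 14627 genes tested were higher and 39.3% lower. Between VNO and OB, 19 were higher in VNO and 2 (Mcm7 and Pcna) lower, against 37.8% and 48.0% of all genes. Between MOE and VNO, 17 were higher in MOE and 2 (Mcm3 and Mcm6) lower, against 48.6% and 34.0%. The median log2 difference of the genes was 0.99, 0.65 and 0.45 in these comparisons, and that of all genes was 0.07, -0.12 and 0.15. With no filter, 42 genes were tested, and 37 were higher in MOE than OB and none lower, 36 higher and 2 lower in VNO than OB, and 29 higher and 5 lower in MOE than VNO. Of all 22091 genes in these fits, 40.3% were higher and 32.4% lower in MOE than OB, 35.4% and 36.5% in VNO than OB, and 38.4% and 32.1% in MOE than VNO.

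Since each library was scaled on its own, other scalings were tried. Quantile normalisation left 20 genes higher and 1 (Bub1b) lower in MOE than OB (45.7% and 39.3% of all genes as deposited). Between VNO and OB it left 12 higher and 6 lower (Bub1b, Mcm5, Mcm7, Nusap1, Pcna and Tpx2), and Ccnb2 and Kif11 also changed sign. Upper quartile scaling left 13 higher and 5 lower (Bub1b, Mcm2, Mcm3, Mcm4 and Mcm6) between MOE and VNO, where Aurka and Mcm4 changed sign, and it moved the median of all genes there from 0.15 to -0.08 and between VNO and OB from -0.12 to 0.10. The median of the tested mitosis genes lay above that of all genes in each case, from 0.19 against -0.06 (VNO to OB, quantile normalisation) to 1.18 against 0.07 (MOE to OB, as deposited). The shares of all genes for VNO to OB after quantile normalisation, and for MOE to VNO after upper quartile scaling, are given with the longer list below.

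Other genes of the pathway, from a longer list of 95 replication and mitosis genes, were partly alike. Of 41 that passed the filter, 27 were higher and 6 lower in MOE than OB (45.7% and 39.3% of all genes). Between MOE and VNO, 27 were higher and 9 lower in MOE (48.6% and 34.0% of all genes), and 21 and 12 after upper quartile scaling (37.3% and 47.3%). Between VNO and OB, 18 were higher and 14 lower in VNO (37.8% and 48.0% of all genes), 9 and 19 after quantile normalisation (41% and 46.3%), and 25 and 8 after upper quartile scaling (48.8% and 38.5%). Melk, a mitotic kinase, had means of 1.93 ± 0.410, 1.29 ± 0.312 and 0.0216 ± 0.0248 FPKM in MOE, VNO and OB (log2 difference of MOE to OB 2.2 ± 0.0902, adjusted p = 6.08e-20). Nek2, a centrosomal kinase, had 2.45 ± 0.444, 3.04 ± 0.623 and 0.175 ± 0.0626, and Ckap2, a spindle protein, had 2.18 ± 0.318, 0.438 ± 0.126 and 0.205 ± 0.0784. Cdca7, a chromatin gene that MYC and E2F activate, ran the other way, with 0.445 ± 0.131, 1.22 ± 0.242 and 3.44 ± 0.388 FPKM (MOE to OB -2.07 ± 0.0636, adjusted p = 3.37e-23). Of 20 tested regulators of cell cycle entry and exit, 11 were higher and 3 lower in MOE than OB, 11 higher and 3 lower in VNO than OB (17 and 2 after upper quartile scaling), and 3 higher and 10 lower in MOE than VNO, and the shares of all genes are those given for the longer list. Ccnd2, a D-type cyclin, was highest in VNO (3.72 ± 0.469, 13.5 ± 1.11 and 3.09 ± 0.185 FPKM), as were the inhibitors Cdkn2b (0.473 ± 0.193, 1.87 ± 0.386 and 0.257 ± 0.106) and Cdkn1c (5.83 ± 0.948, 7.17 ± 1.17 and 1.19 ± 0.202).

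Markers of cell types that divide or that accompany dividing cells also differed between the tissues, and their part in these results was not tested. The 7 globose basal cell markers summed to 8.13 to 15.2 FPKM in MOE, 6.51 to 9.35 in VNO and 13.7 to 17.0 in OB. The median of this sum was highest in OB (16.3 against 13.0 in MOE), and several of the markers are shared with other cells. Neurog1, which defines neuronal progenitors, was low throughout, at 0.0539 to 0.344 in MOE, at most 0.141 in VNO and at 0 in every OB library. The 4 horizontal basal cell markers summed to 16.4 to 24.3, 17.4 to 35.5 and 0.484 to 1.23 FPKM. Migrating neuroblast markers summed to 43.7 to 102, 114 to 171 and 36.0 to 45.3, mostly from Cd24a in the nose, while Dlx1, which marks neuroblasts and interneurons, was at 17.6 to 24.4 in OB and at most 0.113 in MOE and 0.101 in VNO. Nasal dissections can include blood and marrow: the 9 markers of neutrophils and their marrow precursors summed to 146 to 353, 1068 to 1856 and 0.887 to 27.5 FPKM. Most of this was Ltf, which glands also make, whereas the marrow precursor gene Mpo was at 0.179 to 1.10 in MOE, at most 0.443 in VNO and at most 0.182 in OB. Neurog1, Dlx1 and Mpo are single genes picked from their lists. Each ordered the tissues otherwise than the sum of its list, so no amount of a cell type is read from them. B and plasma cell markers (8 genes) summed to 2.70 to 12.2, 4.31 to 45.1 and 0.172 to 0.557, and 5 measured of 6 erythroid markers to 28.7 to 409, 178 to 1091 and 2.15 to 203.

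Sex and housing were compared within each tissue, to ask whether the proliferation genes differed with the sex of the mouse or with the housing. In the sex-combined cages litters were born, and each sex had 2 mice per cage rather than 4. These cannot be told apart from the presence of the other sex. No proliferation gene passed the threshold in any of 21 comparisons. In MOE, 27 genes were tested and the limma adjusted p was at least 0.699. The numbers at an unadjusted p under 0.05 were 1 for SF against SM, 1 for SF against CF, 1 for the interaction of sex and housing, and 0 for the other 4, while 1.75% to 6.94% of all genes were under it in the 7 comparisons. Of all 13755 genes tested, 0.102% were significant for SF against SM, 0.0436% for CF against CM, 0.0509% for SF against CF, 0.0654% for SM against CM, 0.0727% for females against males over both housings, 0.102% for the housings over both sexes and 0.0364% for the interaction. In VNO, 22 genes were tested and 0 were significant, against 0.0722%, 0.0433%, 0.0%, 0.0%, 0.123%, 0.0% and 0.0% of 13843 genes in the same order, and the numbers at an unadjusted p under 0.05 were 1, 0, 1, 0, 1, 2 and 0 (2.33% to 11.0% of all genes). In OB, 7 genes were tested and 0 were significant, against 0.0391%, 0.0469%, 0.00782%, 0.0%, 0.0626%, 0.00782% and 0.00782% of 12789 genes, with 2, 0, 1, 1, 1, 0 and 1 genes at an unadjusted p under 0.05 (2.28% to 6.47% of all genes). With shares this small over all genes, 0 of 27, 22 or 7 genes does not set the proliferation genes apart.

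The intervals show which differences the data leave room for on the log2(FPKM + 0.5) scale, which understates changes of low genes. At a pseudocount of 0.1 differences can be larger, such as -0.45 ± 0.136 (SE) for Cdk1 in VNO, females against males. For females against males over both housings, the 95% intervals of all 27 genes in MOE lay within a log2 difference of 1 in either direction, and those of 26 within 0.5. In VNO, 21 of 22 lay within 1 (all but Cdc20, which was listed at 0 in some libraries) and 20 within 0.5, and in OB all 7 lay within 0.5. For the 2 housings over both sexes, all intervals lay within 1, and 24 of 27 in MOE, 19 of 22 in VNO and 7 of 7 in OB lay within 0.5. The interaction of sex and housing was measured less well, with 0 of 27, 9 of 22 and 3 of 7 intervals within 0.5. In OB, most mitosis genes were below the filter, and of the mitosis genes this statement covers only Bub1b there.

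**Figure D4:**
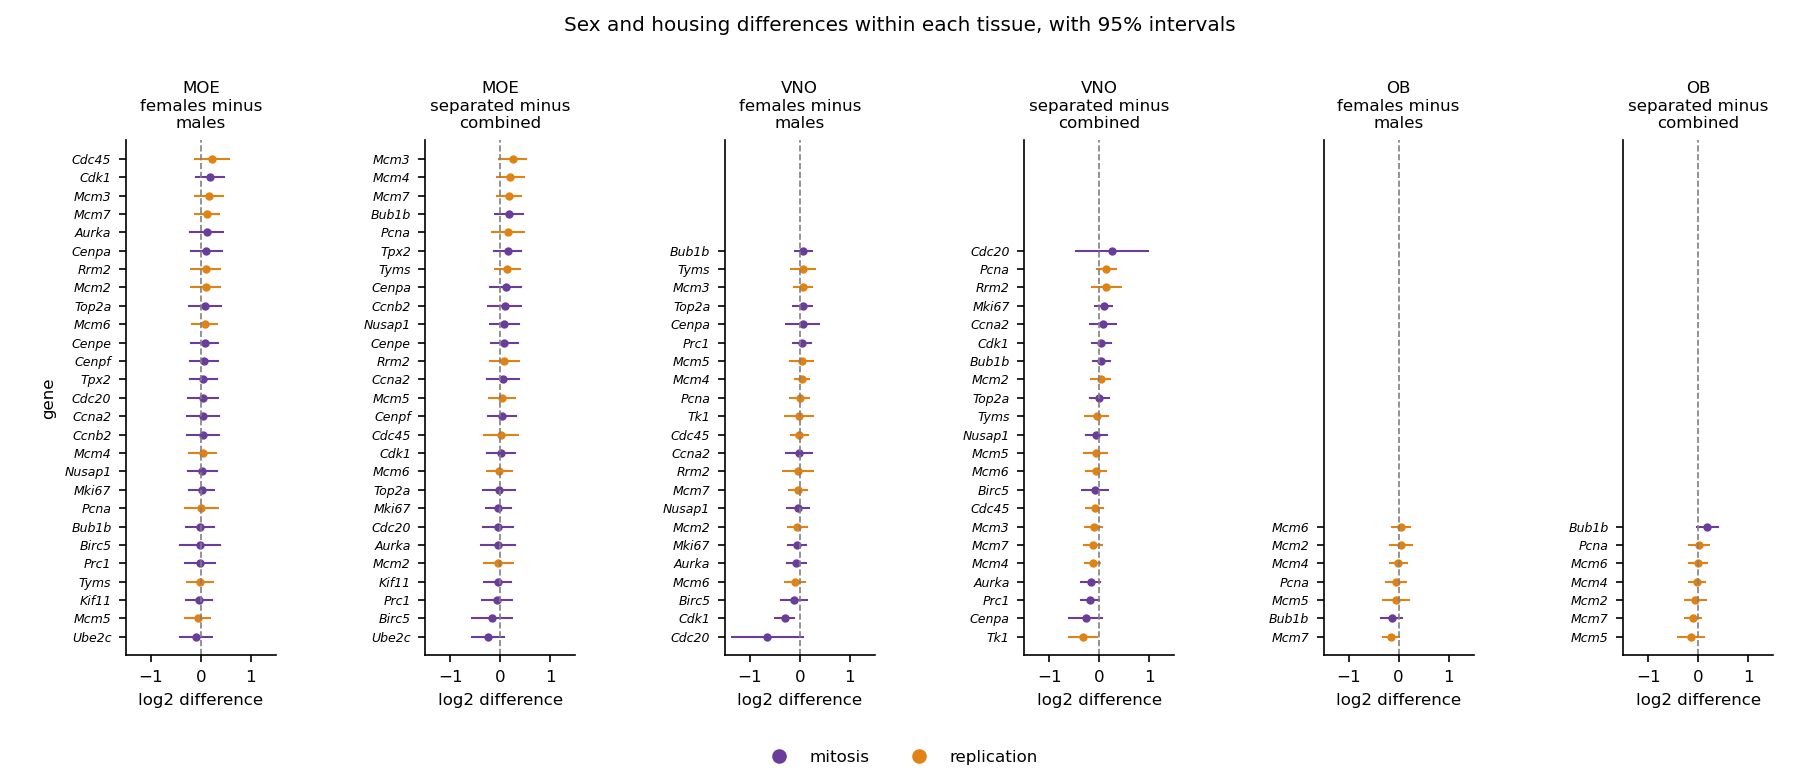
Log2 differences (log2(FPKM + 0.5) scale, points) with 95% intervals (lines) of the proliferation genes tested in each tissue, for females minus males over both housings and for sex-separated minus sex-combined over both sexes. The lines lie within 1 in either direction for all genes but Cdc20 in VNO, and no gene passed the adjusted threshold.

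The levels of the main genes by group were as follows. Mki67 in MOE had 1.14 ± 0.198 FPKM in SF, 1.28 ± 0.169 in SM, 1.35 ± 0.194 in CF and 1.16 ± 0.215 in CM (SD, n = 3). In VNO it had 0.734 ± 0.0468, 0.868 ± 0.0525, 0.735 ± 0.0344 and 0.715 ± 0.164, and in OB 0.0567 ± 0.0126, 0.0639 ± 0.0126, 0.0984 ± 0.0248 and 0.0585 ± 0.00681. None of the differences between these groups that were tested was significant, and Mki67 in OB, whose highest mean was in CF, was below the filter and not tested there. Top2a in MOE had 3.36 ± 0.453, 3.22 ± 0.314, 3.53 ± 0.466 and 3.33 ± 1.19 FPKM in the same order, where the wide spread of CM came from replicate 3 (4.05, 3.98 and 1.95). The summed mitosis genes had 22.5 ± 3.41, 23.4 ± 0.741, 24.6 ± 2.88 and 21.8 ± 6.86 FPKM in MOE, 12 ± 1.98, 13.3 ± 0.836, 13.0 ± 1.59 and 13.2 ± 1.73 in VNO, against 3.79 ± 0.683, 4.60 ± 0.181, 4.27 ± 0.316 and 3.68 ± 0.618 in OB. In OB, the lowest SM library (4.44) lay above the highest CM library (4.36). Without Bub1b, the sums of these groups overlapped, at 3.13 to 3.63 in SM and 2.45 to 3.42 in CM. None of these sums was tested.

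In both MOE comparisons of a group with CM, the direction of the median changed when MOE CM replicate 3 was left out. With it, the median log2 difference of the genes was 0.13 for CF against CM and 0.12 for SM against CM, with 25 and 24 of 27 genes above 0, and the median of all genes was 0.10 and 0.17. Without it, the medians were -0.06 and -0.10 over the 29 genes that then passed the filter, with 12 and 10 above 0. After quantile normalisation or upper quartile scaling, with all libraries, the median for SM against CM was -0.03 or -0.02 and that for CF against CM 0.06 or 0.07. No gene was significant in any of these fits.

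The genes with the smallest unadjusted p are given as values, as none was significant after adjustment over all genes. The share of all genes whose libraries do not overlap between such groups was not counted. Where libraries of these genes do not overlap, this therefore does not set the genes apart. Cdk1 in VNO had 0.525, 0.618 and 0.50 FPKM in SF, 1.10, 0.960 and 0.693 in SM, 0.576, 0.606 and 0.637 in CF and 0.686, 0.724 and 0.859 in CM, so that all 6 male libraries were above all 6 female libraries. The log2 difference of females to males over both housings was -0.30 ± 0.0902 (unadjusted p = 0.00565, adjusted p = 0.416), and in MOE the female libraries had 0.906 to 1.53 and the male libraries 0.601 to 1.19. The other mitosis genes tested in VNO had differences from -0.65 (Cdc20) to 0.07 (Bub1b). Bub1b in OB had 0.810, 0.728 and 0.780 FPKM in SF, 0.934, 1.35 and 1.31 in SM, 0.775, 0.758 and 1.02 in CF and 0.702, 0.588 and 0.932 in CM. All SM libraries were above those of SF and of CM, with a log2 difference of SM to CM of 0.45 ± 0.140 (unadjusted p = 0.00651, adjusted p = 1) and of SF to SM of -0.41 ± 0.140 (unadjusted p = 0.0122, adjusted p = 1). The interaction of sex and housing for Bub1b was -0.53 ± 0.197 (unadjusted p = 0.0183, adjusted p = 0.999). Mcm7 in OB had 1.76, 1.73 and 1.73 FPKM in SF, 2.13, 2.63 and 2.06 in SM, 2.30, 1.86 and 2.31 in CF and 2.08, 2.33 and 2.14 in CM. Its SF libraries lay below all other OB libraries, with a log2 difference of SF to SM of -0.30 ± 0.104 (unadjusted p = 0.0123, adjusted p = 1). Of the others at an unadjusted p under 0.05, Tk1 and Prc1 in VNO differed between sex-separated and sex-combined libraries by -0.32 and -0.19 (adjusted p = 0.629 and 0.649), and Aurka in VNO between SF and CF by -0.28 (adjusted p = 0.446). Ube2c in MOE, chosen here after its values were seen, had 0.393, 0.339 and 0.611 FPKM in SF and 1.20, 1.12 and 0.573 in CF (log2 difference -0.61 ± 0.209, unadjusted p = 0.00993, adjusted p = 1), each from 5 to 14 estimated fragments.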

How the data were processed

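RNA was pooled and depleted of ribosomal RNA, and libraries were sequenced as read pairs of 50 bases on 2 lanes. Per the labels and the submitters' processing notes, the authors aligned reads with TopHat2 2.1.0 and quantified RefSeq transcripts with Cufflinks 2.2.1.0, and the loci carry mm9 coordinates. The deposited values are FPKM with confidence limits, and the authors computed them for each library on its own. Transcripts were assigned to gene symbols by accession and summed by gene, and 7 genes with failed estimates were left out. Fragments per gene were estimated by squaring FPKM over its standard error (from the confidence limits). They are estimates and not counts, and they do not cover the spread between pools.

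Comparisons used limma 3.58.1 under R 4.3.3, with trended eBayes after lmFit, on log2(FPKM + 0.5), for genes with a mean of at least 0.5 FPKM, over 12 libraries and 4 groups within a tissue and over 36 libraries between tissues. Benjamini-Hochberg adjustment covered every gene tested, with a threshold of 0.05, and the fits were tested on simulated data. Tables and figures were made with Python 3.11.15, numpy 2.4.6, pandas 2.3.3, scipy 1.17.1 and matplotlib 3.10.9. Alternatives were pseudocounts of 0.1 and 1, no filter, quantile normalisation, upper quartile scaling, a replicate block, leaving out each library, and fits without the tissue or groups not compared. The members, gene lists and markers were chosen with earlier results of these data known. Library values were given for 8 genes chosen by name and for the 3 genes with the largest and the 3 with the smallest differences between tissues. From the other lists, the 3 genes with the largest differences were named.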

Additional observations from a re-analysis of the deposited data

How the results depend on the processing

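No proliferation gene was significant within a tissue under any alternative. Between tissues, 34 (MOE against VNO), 37 (MOE against OB) and 38 (VNO against OB) of 42 genes were significant with no filter (15572, 16047 and 15900 of all 22091 genes), and 9 of 11 for VNO against OB in a fit on the 24 libraries compared, where fewer genes passed the filter. With each library left out in turn, 17 to 20, 19 to 22 and 20 to 21 genes were significant, and 0 within tissues. In the main fit, 82.6%, 85.1% and 85.8% of all 14627 genes were significant in these comparisons. The numbers of significant genes alone therefore do not set the proliferation genes apart. Log2 differences that changed sign and were significant before or after the change were those of Mcm4 between MOE and VNO under upper quartile scaling (-0.15) and, under quantile normalisation, of Bub1b between MOE and OB (-0.16) and of Bub1b (-0.27), Mcm5 (-0.23), Nusap1 (-0.30), Tpx2 (-0.32), Ccnb2 (-0.15) and Kif11 (-0.029) between VNO and OB. The cause was not tested. Cdc20 between MOE and VNO lost significance when any of 16 libraries was left out. The pseudocount set the size of the differences, with a median for MOE against OB of 1.63 at 0.1 and 0.65 at 1.

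A block was also fitted, for the replicate number within tissues and for each group and number together between tissues. With it, 19 (MOE against VNO), 20 (MOE against OB) and 21 (VNO against OB) genes were significant, and 0 in each comparison within a tissue. Of all genes, 82.6%, 85.1% and 85.8% were significant between these tissues in the main fit, without the block. The paper states that all tissues were taken from each mouse, whereas the main fit treated the libraries as independent. Whether the same number stands for the same mice in each tissue is not stated. Deviations of same-numbered libraries of a group in other tissues had a mean correlation of 0.00813 (36 pairs, 5 over 0.1), and those of other groups in the same tissue 0.0306 (54 pairs, 13 over 0.1). Such correlations cannot show whether pools shared mice.

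In OB, 14 of the 43 genes had a median under 3 estimated fragments. Most of the 43 were below the filter there, so that differences within OB were tested with the filter for only 7 genes.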
